A study of Homo sapiens with 6 samples.

Results

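The genes described here encode the survival and pore-forming proteins of the BCL2 family. They were chosen by symbol and by known role, with earlier results of these data known, and are 8 of the 38637 genes listed in the deposited table. The survival genes are BCL2, BCL2L1 (BCL-XL), BCL2L2 (BCL-W), MCL1 and BCL2A1, and the pore-forming genes are BAX, BAK1 and BOK. All 8 had enough reads for the test across genes, in which 16178 genes entered. RNA of OVCAR8 cells was sequenced after enrichment for polyadenylated RNA. OVCAR8 is an established human ovarian cancer cell line, labelled wild type. The 3 samples of the DMSO group had received the solvent DMSO, and the 3 samples of the pladienolide B group had received 2 nM pladienolide B dissolved in it, each for 72 h. Every sample came from this cell line, with no other cell line, dose or time point, so the comparison holds for this line and this exposure. The question put to these genes was how BCL2L2 stood against the other survival genes when the splicing factor SF3B1 was inhibited.

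Pladienolide B is a small molecule that binds SF3B1, the largest protein of the SF3b complex, which helps the U2 particle of the spliceosome to recognise the branch point near the end of an intron. Proteins of the BCL2 family decide whether the outer membrane of mitochondria stays closed. The survival proteins hold BAX and BAK1 in check by binding them or the BH3-only proteins that set them off, and BAX and BAK1, once free, form pores through which cytochrome c leaves and starts the caspases. BOK resembles them and can form pores without their help. Transcripts of BCL2L1 and MCL1 are known to be spliced into long forms that protect and short forms that do not, and values summed over a whole gene, as here, do not separate such forms.

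Levels are given as adjusted reads, which are the reads of a gene after the authors moved every sample to a common library size. From 22621338 to 26130882 reads per sample could be recovered. Among the DMSO samples, replicate 2 stood apart, since its counts differed from those of replicates 1 and 3 by 7.60 and 7.53 in chi-square per degree of freedom, where the other pairs of replicates differed by 1.93 to 4.91. Each member is therefore also given without it. The ovarian epithelial markers PAX8, KRT7, KRT8, KRT18 and EPCAM were present in every sample, whereas WT1, the remaining marker of that list, had only 13.0 to 33.8 adjusted reads. Of 9 leukocyte and endothelial markers, only 3 had enough reads for the test, PECAM1 and VWF among them. The 9 together reached 90.8 to 127 adjusted reads per DMSO sample and 125 to 144 per treated sample. CD3E had no read in any sample and PTPRC at most 2. Since no source used here says that the samples of a group came from separate cultures, the p-values measure the spread between these samples, which may be technical. In bulk RNA, fewer cells of a kind and less RNA per cell cannot be told apart.

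BCL2L2 occupies chr14:23306833-23311751 on the + strand of hg38, and its canonical transcript in GENCODE has 4 exons and 3 introns. Exons 1 and 2 (62 and 88 bases) are noncoding, exon 3 (440 bases) holds 432 coding bases, and exon 4 (2936 bases) holds the last 147 coding bases and the 3′ untranslated region. The ends of the introns are shown because the inhibited factor acts there. The windows are the last 50 bases of intron 1 (chr14:23307142-23307191), intron 2 (chr14:23307710-23307759) and intron 3 (chr14:23308766-23308815), read on the + strand of hg38. Capitals mark the AG at which each intron ends.
BCL2L2 intron 1: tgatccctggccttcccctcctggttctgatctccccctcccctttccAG
BCL2L2 intron 2: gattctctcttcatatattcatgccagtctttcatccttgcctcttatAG
BCL2L2 intron 3: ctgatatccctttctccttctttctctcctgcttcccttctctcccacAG

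These introns were short, with 297, 480 and 616 bases, against a median of 1694 bases over 180819 canonical introns of protein-coding genes, the shortest left out. Their last 20 bases before the AG were rich in C and T, with 90%, 85% and 90% of these bases, where the median intron had 75%. The letters CTNAC, a simple form of the branch point motif with N for any base, were searched on the transcript's own strand in the last 50 bases, with no other motif searched. They were in the window of 24.25% of the 180819 introns and in none of the 3 introns of BCL2L2. No intron of the members was left out for its length, and intron 2 of BAX, with 87 bases, has the letters. Over the members, the letters were in 0 of the 10 introns of the survival genes and in 7 of the 14 introns of the pore-forming genes, whose introns were between 87 and 7648 bases long. A match or its absence describes these letters only, and many branch points in human genes do not have them.

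The primers with which the study measured spliced and unspliced RNA of BCL2L2 are shown because they place that measurement on the exons and introns described above. For the spliced RNA, the forward primer lies in exon 3 (chr14:23308126-23308145, + strand), which BCL2L2 shares with a readthrough gene described with its neighbours, and the reverse primer lies in exon 4 (chr14:23308930-23308949, - strand), which it does not share with that gene. For the unspliced RNA, both primers lie in intron 3, which is also intronic in the readthrough gene, at chr14:23308233-23308252 on the + strand and chr14:23308386-23308405 on the - strand. The study describes its primers for unspliced RNA as crossing junctions of intron and exon, whereas both matched within the intron here. The sequences are in lower case with no base marked.
BCL2L2 mRNA forward: gacaagtgcaggagtggatg
BCL2L2 mRNA reverse: aaggcccctacagttaccag
BCL2L2 pre-mRNA forward: cttctgcaaagctggtctcc
BCL2L2 pre-mRNA reverse: atgagcccatccagtgttga

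BCL2L2 was the only member that changed at least 2-fold, and it fell. It had 1769, 1730 and 1742 adjusted reads in DMSO replicates 1 to 3, and 814, 808 and 790 in pladienolide B replicates 1 to 3. Every treated sample lay under 815 and every DMSO sample over 1700, and the samples within a group were close together, with a coefficient of variation of 1.15% in DMSO and 1.57% in pladienolide B. The mean went from 1747 ± 20.1 to 804 ± 12.6 (mean ± SD, 3 samples each), a log2 fold change of -1.12 (SE 0.05, 95% interval -1.23 to -1.01, limma adjusted p = 4.87e-11). Of all genes tested, 1.98% were called at least 2-fold lower and 3.93% at least 2-fold changed. Ordered by log2 fold change from the lowest, BCL2L2 stood at place 214 of 16178, and 2.95% of the genes tested had a larger change in either direction. Leaving out each sample in turn gave -1.13 to -1.11, and -1.13 without DMSO replicate 2.

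A gene was called when its limma p, adjusted by Benjamini-Hochberg over all genes tested, was below 0.05. By that rule 4 of the 8 members were called, where 47.6% of all genes tested were. The called members were BCL2L2 and BOK, which were lower as were 25.2% of all genes, and BCL2L1 and BAK1, which were higher as were 22.4%. So the share of members called was close to that of all genes. BCL2L2 had the largest log2 fold change of the 8 in size, and the other 7 lay between -0.14 and 0.40. Their median absolute log2 fold change was 0.15, and that of all genes tested was 0.23.

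**Figure D1:**
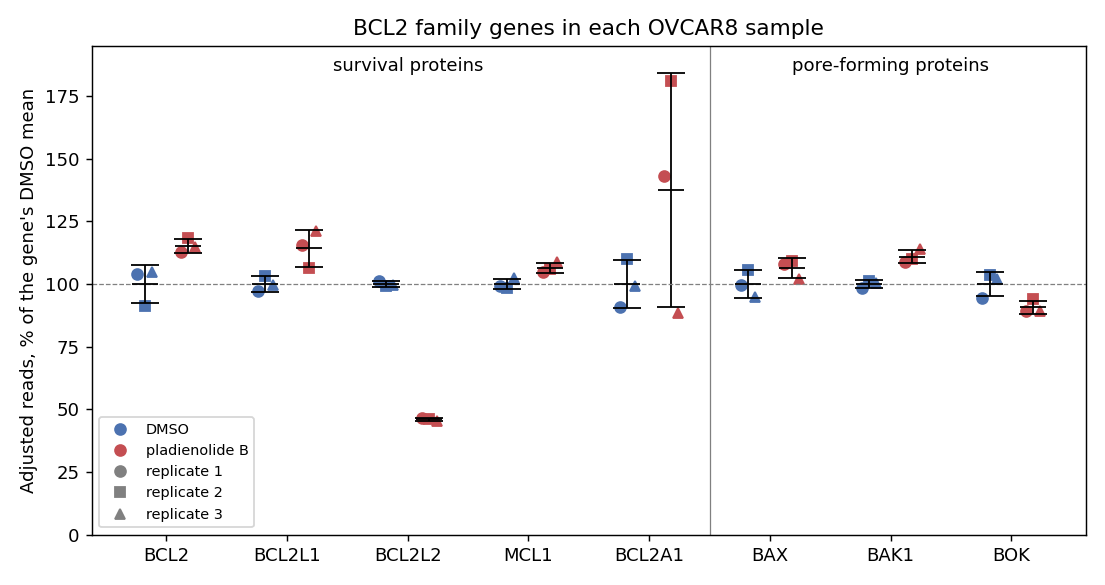
Adjusted reads of the 8 genes in each sample as a percentage of that gene's mean in DMSO (y axis, percent; blue, DMSO; red, pladienolide B; marker shape, replicate; bars, mean and SD, n = 3 per group). BCL2L2 sits at 46.0% in pladienolide B with hardly any spread, BCL2A1 spreads from under to far over its DMSO mean, and the other genes stay within a narrow band around 100%.

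BCL2L1, which encodes the mitochondrial survival protein BCL-XL, rose by a small amount. It had 3166, 3366 and 3239 adjusted reads in the DMSO samples and 3764, 3467 and 3940 in the pladienolide B samples. The groups did not overlap, but the lowest treated sample, replicate 2, was only a little above the highest DMSO sample. The mean went from 3257 ± 101 to 3724 ± 239 (mean ± SD, 3 samples each). The log2 fold change was 0.19 (SE 0.05, 95% interval 0.09 to 0.30, limma adjusted p = 0.00427), and 0.22 without DMSO replicate 2. It remained called with any sample left out, with adjusted p from 0.000651 to 0.0351 by limma.

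MCL1, a survival protein with a short life in the cell, had the most reads of the 8 genes. Its samples held 6072, 6027 and 6258 adjusted reads in DMSO and 6411, 6480 and 6655 in pladienolide B. All treated samples were above all DMSO samples, by a small margin. The log2 fold change was 0.09 (SE 0.04, 95% interval 0.01 to 0.17), which did not pass the test at an adjusted p of 0.0681 by limma. Without DMSO replicate 2 it was 0.08. With edgeR and RLE scaling of the recovered reads it passed narrowly, at an adjusted p of 0.0461 and a log2 fold change of 0.10.

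BCL2, the founding member of the family, was expressed at a low level, with 182, 159 and 184 adjusted reads in DMSO and 197, 207 and 200 in pladienolide B. All treated samples were higher, and the DMSO sample farthest from the treated ones was replicate 2. The log2 fold change of 0.21 (SE 0.11, 95% interval -0.03 to 0.44) had an adjusted p of 0.136 by limma. Without DMSO replicate 2 the log2 fold change was 0.14.

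BCL2A1, a survival gene best known from blood cells and as a target of NF-κB, had few reads. The DMSO samples held 64.8, 78.6 and 70.9 adjusted reads and the pladienolide B samples 102, 129 and 63.2. Replicates 1 and 2 of pladienolide B were above every DMSO sample and replicate 3 was below them all, so the groups overlapped and the coefficient of variation rose from 9.69% to 33.9%. The log2 fold change was 0.40 (SE 0.21, 95% interval -0.06 to 0.85, limma adjusted p = 0.139). Without pladienolide B replicate 3 it was 0.68 with an adjusted p of 0.00851 by limma, so the outcome for BCL2A1 rested on that sample. Without DMSO replicate 2 it was 0.47, and no call among the survival genes changed without that sample.

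The comparison set for the family was BCL2L2 against each other survival gene, taken as the difference of their log2 values within a sample, so that a change common to both genes drops out. Against BCL2L1 the difference was -0.84, -0.96 and -0.89 in DMSO and -2.21, -2.10 and -2.32 in pladienolide B, a change of -1.31 ± 0.07 (SE, n = 3 per group), so the ratio of BCL2L2 to BCL2L1 reached 0.403 times its DMSO value. Against MCL1 the difference went from -1.81 ± 0.03 to -3.02 ± 0.05 (mean ± SD, 3 samples each), a change of -1.21 ± 0.04 (SE), or 0.432 times. MCL1 gave the tightest of the 4 comparisons. Against BCL2 the difference went from 3.32 ± 0.10 to 1.99 ± 0.04 (mean ± SD, 3 samples each), a change of -1.32 ± 0.06 (SE), or 0.399 times. Against BCL2A1 it went from 4.60 ± 0.15 to 3.08 ± 0.50 (mean ± SD, 3 samples each), a change of -1.52 ± 0.30 (SE), or 0.349 times. In all 4 comparisons the 3 treated samples lay below the 3 DMSO samples. The two-sided exact permutation test gave p = 0.1 for each, which is the smallest value that 3 samples against 3 allow, and 0.1 after adjustment over the 4 pairs. This design cannot bring such a test below 0.05. The direction of these differences was known from earlier results of the same data.

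Among the pore-forming genes the changes were small and did not share a direction. BAK1, which sits in the outer mitochondrial membrane, had 1372, 1414 and 1398 adjusted reads in DMSO and 1520, 1532 and 1588 in pladienolide B. No treated sample reached down to a DMSO sample. The mean rose from 1395 ± 21.6 to 1547 ± 36.7 (mean ± SD, 3 samples each), a log2 fold change of 0.15 (SE 0.05, 95% interval 0.05 to 0.25, limma adjusted p = 0.0192). Without DMSO replicate 2 it was 0.16, and BAK1 remained called. BAK1 was no longer called without DMSO replicate 1 (0.14, limma adjusted p = 0.0698) or without pladienolide B replicate 3 (0.13, limma adjusted p = 0.0762).

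BAX, which moves from the cytosol to mitochondria when it is set off, had 1006, 1069 and 959.9 adjusted reads in DMSO and 1094, 1107 and 1031 in pladienolide B. The groups shared part of their range, since DMSO replicate 2 was above pladienolide B replicate 3. The log2 fold change was 0.09 (SE 0.06, 95% interval -0.03 to 0.22, limma adjusted p = 0.22), and 0.13 without DMSO replicate 2.

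BOK, the third gene of this class, went the other way. Its DMSO samples held 1457, 1598 and 1576 adjusted reads and its pladienolide B samples 1379, 1448 and 1377. All treated samples were below all DMSO samples, but replicate 2 of pladienolide B nearly reached replicate 1 of DMSO. The log2 fold change was -0.14 (SE 0.05, 95% interval -0.25 to -0.03, limma adjusted p = 0.0408). This call was narrow, and it was lost under DESeq2 at an adjusted p of 0.0888 and without DMSO replicate 2 at an adjusted p of 0.0795 by limma. It was also lost without DMSO replicate 3 (limma adjusted p = 0.127), pladienolide B replicate 1 (limma adjusted p = 0.12) or pladienolide B replicate 3 (limma adjusted p = 0.116). Counting all 8 members, the groups were separate in 6, where they were separate in 55.3% of all genes tested. In 4 of the 6 (BCL2, BCL2L1, MCL1 and BAK1) the treated samples were higher, against 26.4% of all genes, and in 2 (BCL2L2 and BOK) lower, against 28.8%.

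**Figure D2:**
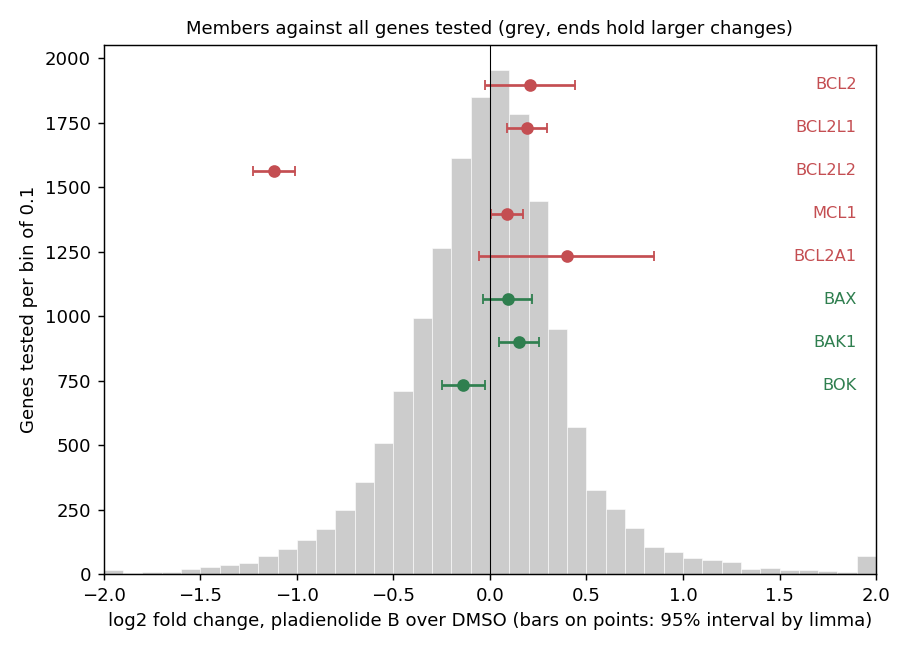
Log2 fold change, pladienolide B over DMSO (x axis), of each survival gene (red) and pore-forming gene (green) with its 95% interval by limma, over a histogram of all 16178 genes tested (grey, genes per bin, y axis, with larger changes held in the end bins). BCL2L2 at -1.12 lies in the left tail, and the other members lie between -0.14 and 0.40 in the middle of the distribution.

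To compare levels between genes, adjusted reads were divided by the length of each gene's exons in GENCODE, taken over all its transcripts. For MCL1 that length was 6222 bases, more than the 5053 bases that its deposited position spans. The length used therefore holds exon bases outside the deposited position, and levels, sums and shares by it depend on this choice. In DMSO, MCL1 had the highest level, with 983 ± 19.7 adjusted reads per kb, followed by BCL2L1 with 776 ± 24.1, BAK1 with 630 ± 9.75 and BOK with 576 ± 28.3 (SD, n = 3). BAX followed with 391 ± 21.2 adjusted reads per kb, BCL2L2 with 361 ± 4.15, BCL2A1 with 71.8 ± 6.96 and BCL2 with 13.9 ± 1.07 (SD, n = 3). In pladienolide B the order was the same, and no neighbours in the order overlapped between samples in either group. BCL2L2 went to 166 ± 2.61 adjusted reads per kb (SD, n = 3). BAX, next above it in the order, was farther away than in DMSO, at 416 ± 15.6, and BCL2A1 followed at 98.7 ± 33.4. The order depended on the length used. With the length of canonical transcripts, BAX moved up to place 2 in DMSO and 3 in pladienolide B. Another length counted only exon bases that no other gene shares, while the reads divided by it were still those of the whole gene. Genes with shared exons therefore get higher values by it. With that length BCL2L1 came first in both groups. BCL2L2 then stood above BAX in DMSO, at 480 against 391 adjusted reads per kb, and below it in pladienolide B, at 221 against 416.

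Summed over the 5 survival genes, the level per kb hardly differed, with 2206 ± 26.7 in DMSO and 2215 ± 35.1 in pladienolide B (mean ± SD, 3 samples each), and the samples of the groups overlapped. Without BCL2L2, the sum of the remaining 4 genes was 1845 ± 30.6 in DMSO and 2049 ± 37.1 in pladienolide B, with every treated sample above every DMSO sample. BCL2L2 made up 16.8%, 16.1% and 16.2% of the survival sum in the DMSO samples, and 7.60%, 7.66% and 7.25% in the pladienolide B samples. BCL2L1 took 34.7%, 36.1% and 34.7% of the sum in the DMSO samples and 40.5%, 37.9% and 41.7% in the treated ones. The share of MCL1 went from 44.6% ± 0.84 to 47.3% ± 0.64 (mean ± SD, 3 samples each). The 3 pore-forming genes summed to 1598 ± 48.5 per kb in DMSO and 1639 ± 19.4 in pladienolide B. The survival sum was 1.38 ± 0.03 times the pore-forming sum in DMSO and 1.35 ± 0.03 times in pladienolide B (mean ± SD, 3 samples each), with overlapping samples. With canonical transcript lengths the share of BCL2L2 was 14.5% in DMSO and 6.56% in pladienolide B, and the survival sum was 1.37 and 1.34 times the pore-forming sum. All these sums describe RNA and weigh every gene alike, whatever the amount or strength of its protein.

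**Figure D3:**
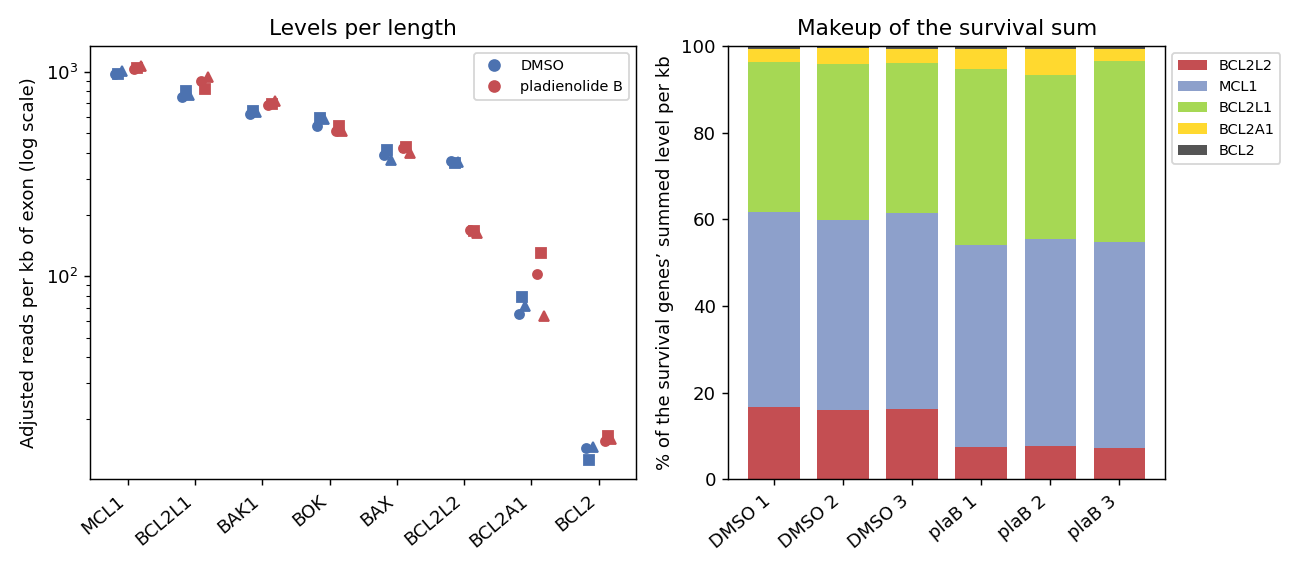
Left, adjusted reads per kb of exon (y axis, log scale) for each gene in each sample (blue, DMSO; red, pladienolide B; marker shape, replicate). Right, percentage of the survival genes' summed level per kb (y axis) taken by each survival gene in each sample, in which BCL2L2 (red) takes 16.1% to 16.8% under DMSO and 7.25% to 7.66% under pladienolide B.

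Reads of BCL2L2 can overlap with those of other genes. BCL2L2-PABPN1, a readthrough gene, joins the first 3 exons of BCL2L2 to exons of PABPN1, which encodes a protein that binds the poly(A) tail. All of exons 1 to 3 of BCL2L2 are shared with it, and exon 4, with 83.27% of the bases of the canonical transcript, is not. BCL2L2-PABPN1 had 3547, 3498 and 3399 adjusted reads in DMSO and 2928, 2874 and 2877 in pladienolide B. The treated samples were all lower, at a log2 fold change of -0.27 (SE 0.04, limma adjusted p = 5.88e-05). That change was smaller than for BCL2L2, and the ratio of BCL2L2-PABPN1 to BCL2L2 was 1.95 to 2.02 across the DMSO samples and 3.56 to 3.64 across the treated ones. PABPN1 went from 3646 ± 73.2 to 3141 ± 76.1 adjusted reads (mean ± SD, 3 samples each), a log2 fold change of -0.22 (SE 0.04, limma adjusted p = 0.000488). Of the exon bases of BCL2L2-PABPN1, 61.05% are shared with PABPN1 and 34.39% with BCL2L2, and only 4.557% belong to no other gene. The ratio given above is therefore one of deposited values and does not measure readthrough transcripts against those of BCL2L2. How reads in shared exons were counted, and whether strand was used, is not given in the sources used here, so the part of shared reads in the values of either gene was not tested.

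On the opposite strand, HOMEZ and PPP1R3E have exon bases in common with some BCL2L2 transcripts in GENCODE, 149 and 315 of the 4840 exon bases of the gene, though with no exon of the canonical one. The deposited positions of the genes do not overlap. That of BCL2L2 starts at 23306833 on chromosome 14, and those of HOMEZ and PPP1R3E end at 23286132 and 23302859. The bases in common therefore lie outside the deposited position of 1 gene or the other, and shared reads were not tested. HOMEZ, a homeobox and leucine zipper gene, fell from 469 ± 18.3 to 247 ± 21.5 adjusted reads (mean ± SD, 3 samples each), with a log2 fold change of -0.92 (SE 0.09, limma adjusted p = 2.97e-07). PPP1R3E, a regulatory subunit of protein phosphatase 1, had a log2 fold change of -0.21 (SE 0.11, limma adjusted p = 0.124). Of the 7 other genes of the table within 50 kb of BCL2L2, 5 were tested, of which 3 were lower and 2 not called. The 25.2% of all genes tested that were called lower is the background for that count.

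**Figure D4:**
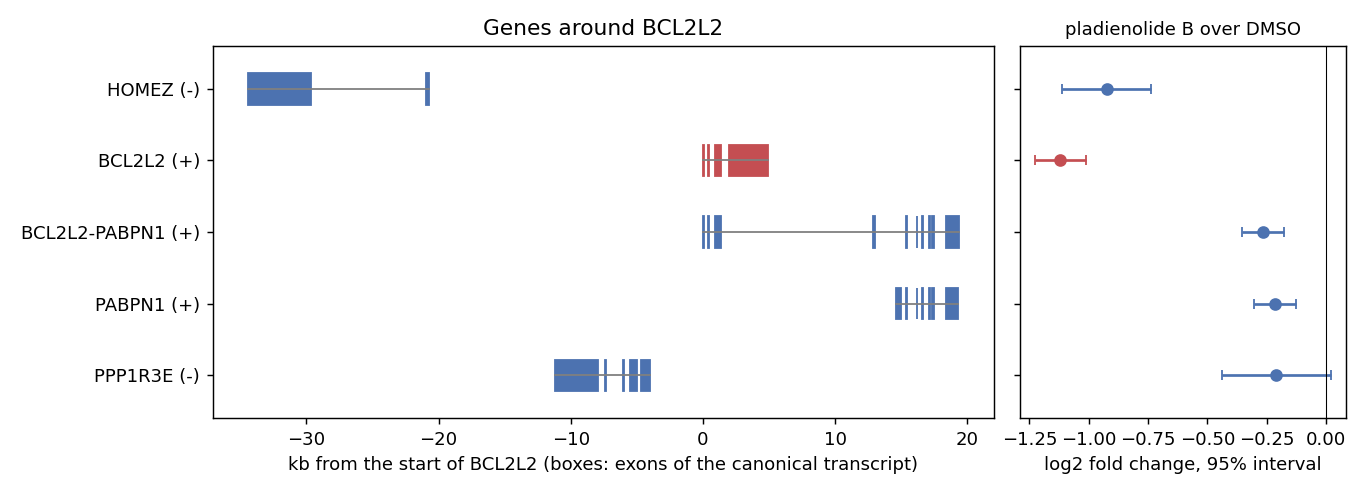
Left, exons (boxes) of the canonical transcripts of BCL2L2 (red) and of the genes that share GENCODE exon bases, in any transcript, with it or its readthrough, by distance in kb from the start of BCL2L2 (x axis), with the strand in brackets. Right, the log2 fold change of each gene, pladienolide B over DMSO, with its 95% interval by limma, in which BCL2L2 (-1.12) and HOMEZ (-0.92) lie well below BCL2L2-PABPN1 (-0.27) and PABPN1 (-0.22).

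Other members share GENCODE exon bases as well. For BCL2L1, 41.34% of the exon bases are shared with ABALON, an antisense RNA, which had a log2 fold change of 0.11 (SE 0.06, limma adjusted p = 0.154) and 1184 to 1319 adjusted reads in DMSO. In those bases, reads of BCL2L1 and of ABALON cannot be told apart here. MCL1 shares 43 exon bases with ADAMTSL4, a secreted matrix protein on the opposite strand that had a log2 fold change of -0.88 (SE 0.06, limma adjusted p = 9.4e-09), while MCL1 itself was at 0.09. MCL1 also shares 328 bases with ADAMTSL4-AS1, which had at most 6 reads in a sample. BAK1 shares 91 bases with GGNBP1, also with at most 6 reads, and BOK shares 201 with BOK-AS1, with 6 to 22 reads. BCL2, BCL2A1 and BAX share none.

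The BH3-only proteins set off BAX and BAK1 directly or by occupying the survival proteins. All 8 genes of that list were tested, of which 2 were higher, 2 lower and 4 not called, so that 50% were called beside the 47.6% of all genes tested, with a median log2 fold change of 0.14, where the median of all genes tested was -0.004. BCL2L11 (BIM), which binds all survival proteins, rose from 193 ± 4.91 to 300 ± 17.0 adjusted reads (mean ± SD, 3 samples each), a log2 fold change of 0.63 (SE 0.10, limma adjusted p = 4.58e-05). BMF rose from 24.0 ± 6.64 to 50.4 ± 3.15 (mean ± SD, 3 samples each), a log2 fold change of 1.07 (SE 0.25, limma adjusted p = 0.00213) on few reads. BBC3 (PUMA), a target of p53, was lower, with 353, 180 and 370 adjusted reads in DMSO and 177, 141 and 157 in pladienolide B. DMSO replicate 2 was close to the treated samples here, and the log2 fold change of BBC3 was -0.85 (SE 0.20, limma adjusted p = 0.00174) with that sample and -1.19 without it. The fourth called gene, BAD, had a log2 fold change of -0.28.

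Other BCL2-related genes were mixed as well. Of 7 genes 6 were tested, with 1 higher, 2 lower and 3 not called (50% called, beside 47.6% of all genes tested), and a median of -0.05. BNIP3, which acts at mitochondria in hypoxia and mitophagy, fell furthest of the list, from 8812 ± 901 to 2655 ± 118 adjusted reads (mean ± SD, 3 samples each), a log2 fold change of -1.73 (SE 0.06, limma adjusted p = 3.52e-12). Its relative BNIP3L had a log2 fold change of -0.78 (SE 0.06, limma adjusted p = 2.82e-08).

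The partners of the pore at the outer membrane and in mitochondrial fission had 1 of 9 genes higher and 8 not called, or 11.1% called beside 47.6% of all genes tested, and a median log2 fold change of 0.08. The called gene was MFN2, which fuses outer membranes, with a log2 fold change of 0.23 (SE 0.04, limma adjusted p = 0.00017). Downstream of the pore, 4 of 12 genes were higher, 2 lower and 6 not called (50% called, beside the same 47.6%), with a median of 0.05. APAF1, which binds cytochrome c in the apoptosome, fell with a log2 fold change of -0.49 (limma adjusted p = 9.56e-07). CYCS, cytochrome c itself, had a log2 fold change of -0.09 (limma adjusted p = 0.226). Of 9 genes that govern the turnover of family proteins, 8 were tested, with 3 higher, 1 lower and 4 not called (again 50% called, beside 47.6%), and a median of 0.09. The largest change there was that of VCP, an ATPase that extracts proteins for degradation, with a log2 fold change of -0.36 (SE 0.04, limma adjusted p = 7.44e-07). APAF1, CYCS and BAD were named for their roles after their values were seen.

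**Figure D5:**
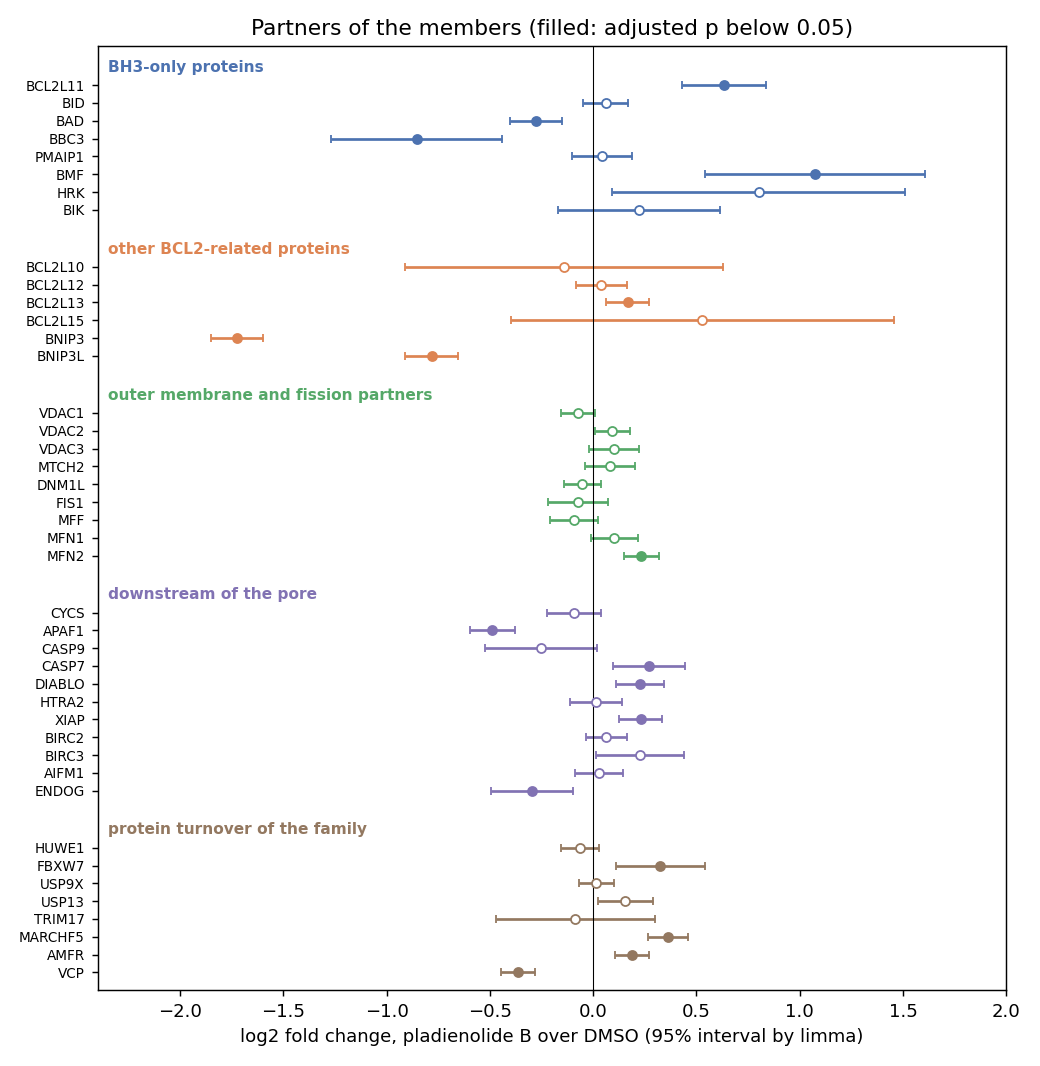
Log2 fold change, pladienolide B over DMSO (x axis), with 95% intervals by limma for genes of 5 lists (y axis, grouped by colour), where filled points had an adjusted p below 0.05. The members of each list lie on either side of 0, with BNIP3 (-1.73) and BMF (1.07) at the ends and the outer membrane and fission partners close to 0.

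Of the marker lists, 3 of the 6 ovarian epithelial genes were called (50%, beside 47.6% of all genes tested), KRT8 and KRT18 higher and KRT7 lower, and the 3 leukocyte and endothelial genes tested were not called by limma, where 1 of them (VWF) had an unadjusted p below 0.05. KRT7 had the largest change, a log2 fold change of -0.64 (SE 0.08, limma adjusted p = 7.7e-06). VWF had the largest change of the other list, a log2 fold change of 0.64 (SE 0.27, limma adjusted p = 0.0549) on 20 to 45 reads. Their part in the values of the family was not tested.

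The genes whose values over the 6 samples were most like those of BCL2L2 were found by the Euclidean distance between log2 values, each gene taken from its own DMSO mean. The 5 nearest were AGRN (distance 0.11, log2 fold change -1.07), which encodes the matrix proteoglycan agrin, POLG (0.12, -1.12), the mitochondrial DNA polymerase, DDX46 (0.13, -1.09), an RNA helicase that helps the U2 particle to bind, ERAP1 (0.14, -1.09), a peptidase of the endoplasmic reticulum, and PFKL (0.15, -1.08), a phosphofructokinase. Each had a mean in pladienolide B between 45.9% and 47.5% of its DMSO mean, near the 46.0% of BCL2L2, which follows from how they were picked. The spread was wider for some, with a coefficient of variation in DMSO of 4.92% for DDX46 and 5.30% for PFKL against 1.15% for BCL2L2.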

How the data were processed

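Polyadenylated RNA of 6 samples was sequenced. According to the study's methods, trimmed reads were placed on hg38 by hisat2 and groups were compared with DESeq2. The submitters' processing notes name HISAT2, HTSeq 0.12.4, DESeq2 and hg19. The positions in the table overlapped those of GENCODE v44 on GRCh38 for 99.97% of 26990 symbols, so hg38 was used. The values deposited by the authors are a signal, reads per gene moved to a common library size, and not whole counts. Whole reads were recovered by inverting the adjustment of edgeR, and 100% of the values of 10 or more came out within 0.02 of a whole number. Columns with the authors' own fold changes, p-values and q-values were not used.

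Genes were kept by filterByExpr (minimum count 10) on the adjusted reads. They were tested with limma 3.58.1 (trend) on log2(adjusted reads + 1) in R 4.3.3, which understates changes of low genes. The Benjamini-Hochberg adjustment was over all genes tested. The table held adjusted values, and the design had foreseen this form. Alternatives were edgeR 4.0.16 with TMM or RLE scaling, DESeq2 1.42.0, no filter, a minimum of 10 per sample, a smaller pseudocount (0.1), a block for the replicate number, each sample left out, and other gene lengths (exon bases shared with no other gene were added after seeing the data). Counts were also simulated for 15848 genes, with the same spread set for all genes and no outlying replicate. In them 100 well-expressed genes were changed by 0.5 and 100 by 1 (log2). Of these, 94% and 100% were called, and 7.18% of the calls were false. Far fewer genes were changed than were called in the data, so these rates need not hold for the data.

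The members and lists were chosen with earlier results of these data known. Named are the members, PABPN1, BCL2L2-PABPN1, called genes of each list with an absolute log2 fold change of at least 0.5 or otherwise the gene with the largest, and the 5 genes nearest to BCL2L2. Genes that share exon bases with members, and others singled out, were named after their values were seen. Intron sequences are from hg38, and primers from the study's supplementary table. Some genes of the lists are not reported here.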

Additional observations from a re-analysis of the deposited data

How the results depend on the processing

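BCL2L2 kept its direction and its call in every alternative run, and no result reversed. Of the alternative values for the main results, 162 were counted as the same, 10 lost a call, 2 gained one and 2 moved. All 182 for single named genes kept their direction and call. A gene counted as the same when it kept its direction and call, and a pair of genes when it kept its direction alone. A number of genes called counted as the same within 1.5-fold, and a share within the SD of its samples. BOK lost its call with RLE scaling (-0.13, adjusted p = 0.0506 by edgeR), DESeq2 (-0.13, adjusted p = 0.0888), no filter (-0.14, adjusted p = 0.0625 by limma) and the replicate block (-0.14, adjusted p = 0.0504 by limma), and with a sample left out it ranged from -0.18 to -0.11. BAK1 ranged from 0.13 to 0.16 with a sample left out and lost its call without DMSO replicate 1 or pladienolide B replicate 3. BCL2A1 ranged from 0.17 to 0.68 and passed only without pladienolide B replicate 3. MCL1 passed only with RLE scaling (0.10, adjusted p = 0.0461 by edgeR). The share of BCL2L2 in the survival sum was 14.5% in DMSO and 6.56% in pladienolide B with canonical transcript lengths. The causes were not tested. Same-numbered samples correlated at -0.018, -0.017 and 0.003 after removing the group means, within the -0.035 to 0.048 of differently numbered samples. No shared effect of the replicate number was seen, but this cannot exclude that same-numbered samples were handled together. With the number as a block, 7349 genes were called in place of 7695. Over the alternatives, 6568 to 7836 genes were called, with 7738 by edgeR and TMM and 6985 by DESeq2 on the recovered reads. BCL2A1 (63 to 122 reads per sample) and BCL2 (158 to 200) had the fewest reads of the members, and 3 samples per group limited the tests, since with them an exact test of a single value cannot go below 0.1.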
